A study of Homo sapiens with 6 samples.

Results

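The receptors of the EGF family and their ligands were followed in SW480 cells after knockdown of HPSE, the gene of heparanase. The 10 genes were chosen by name, as 6 ligands (AREG, EREG, HBEGF, TGFA, BTC and EGF) and 4 receptors (EGFR, ERBB2, ERBB3 and ERBB4), and looked up by Ensembl identifier among the 59192 features of the deposited table. Of the 10, 9 had a row and 8 reached the minimum of the test, a mean of 10 normalized counts over the 6 libraries. ERBB3 had no row of its own, and whether its reads are in one of the 33265 loci that a transcript assembler named was not determined. ERBB4 had a row but stayed below the minimum.

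SW480 is a line from a human colorectal adenocarcinoma. The knockdown line, SW480-45 in the sample labels and SW480-KD1 here, carries Cas9 with puromycin selection and a lentiviral guide RNA against HPSE together with EGFP. The control line SW480-NC carries the same Cas9 and EGFP vectors with a control guide. Each line, called knockdown and control below, gave RNA from 3 experiments that the study's methods describe as independent. Only 1 guide stands for the knockdown, so an effect of HPSE and an effect of that guide or of the derived line cannot be told apart. No stimulation with a ligand or inhibitor was part of these groups.

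EGF-type ligands are made as membrane proteins and are released by proteases of the ADAM family. EGFR binds these ligands, ERBB3 and ERBB4 bind neuregulins, ERBB2 has no known ligand and serves as a partner of the others, and the activated pairs signal through RAS and ERK and through PI3K and AKT. HBEGF and AREG bind heparin, and so can bind the heparan sulfate chains that heparanase cleaves. In colorectal cancer AREG and EREG are known as markers of dependence on EGFR.

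The libraries held 33221323 to 39802365 reads on the features. HPSE itself had 136, 172 and 146 normalized counts in the knockdown and 270, 295 and 246 in the control, a log2 fold change of −0.83 (95% interval −1.17 to −0.50, adjusted p = 0.0547 from limma), so that 56.1% of the control level was left. HPSE was under the adjusted threshold in 4 of 17 alternative settings, among them DESeq2 (adjusted p = 0.000948), and not in edgeR (adjusted p = 0.0664). The guide cuts within the HPSE gene, so the RNA level is not a direct measure of editing. The paper assessed HPSE protein by western blot and states that its guides lowered HPSE expression efficiently. Of the epithelial markers, EPCAM at 16775 to 18783 and KRT8 at 70496 to 90059 normalized counts were abundant in all libraries. CDH1, KRT18 and CDX1 had no row. CDX2, the intestinal transcription factor, had 19.0 to 40.3. Of the defining markers of other cells, COL1A2 was at 0 in 5 of 6 libraries and CDH5 at 0 in 5 of 6. PTPRC had no row, which does not show that it was absent. Others were present at low levels, with PECAM1 at 9.03 to 30.6, CLDN5 at 8.13 to 13.8, VWF at 0 to 19.0 and PDGFRB at 10.5 to 49.9 normalized counts. CD14 had 38.6 to 44.3 in the knockdown and up to 46.7 in the control. LYZ, which leukocytes and the Paneth cells of the intestine both make, had 59444 to 71955 normalized counts. COL1A1 had 198 to 359. None of the 7 tested markers of fibroblasts, endothelium and leukocytes passed the adjusted threshold in limma, and 2 had an unadjusted p under 0.05 (COL1A1 and LYZ). Of 6 tested epithelial markers 5 had a log2 fold change below 0 and 1 above. KRT20, a keratin of differentiated colon cells, fell (log2 fold change −0.81, adjusted p = 0.00719 from limma), and its part in the results below was not tested. VIL1 was higher without overlap, at 8854 to 9508 normalized counts in the knockdown and 7576 to 8524 in the control (log2 fold change 0.20, adjusted p = 0.225 from limma). KRT8 and EPCAM were lower without overlap (adjusted p = 0.141 and 0.454 from limma). In such bulk libraries fewer cells of a type and less RNA per cell cannot be told apart.

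The ligand genes AREG and EREG are neighbours on chromosome 4 (GRCh38, GENCODE 29), EREG (ENSG00000124882) from 74365143 to 74388751 and AREG (ENSG00000109321) from 74445134 to 74455009, both on the plus strand, with BTC (ENSG00000174808) on the minus strand from 74744759 to 74794686. The other members are on other chromosomes or far from these, EGFR (ENSG00000146648) on chromosome 7 from 55019021 to 55211628, TGFA (ENSG00000163235) on chromosome 2 from 70447280 to 70554193 and ERBB2 (ENSG00000141736) on chromosome 17 from 39687914 to 39730426. Upstream sequence of 5 members is shown to set the 2 most abundant ligands beside BTC, EGFR and TGFA, whose libraries did not overlap between the lines. The sequences are from RefSeq on GRCh38.p14, read 5′ to 3′ on the strand of the gene, and stop before the first base that GENCODE 29 places in an exon. The TGFA stretch precedes its RefSeq start and lies within the longer TGFA gene of GENCODE. Capitals mark matches on either strand to the letters TATAAA (the core of a TATA box), TGACGTCA (the cAMP response element), TGANTCA (AP-1), GGGCGG (the GC box of SP1) and GGAAGT (ETS factors).

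AREG, chr4:74444886-74445133, plus strand: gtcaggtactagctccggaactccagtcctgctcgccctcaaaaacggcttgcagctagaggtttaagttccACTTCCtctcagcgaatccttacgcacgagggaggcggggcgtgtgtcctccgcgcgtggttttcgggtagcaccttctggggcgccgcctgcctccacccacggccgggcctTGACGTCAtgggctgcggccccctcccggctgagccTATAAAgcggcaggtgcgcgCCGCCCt
EREG, chr4:74364895-74365142, plus strand: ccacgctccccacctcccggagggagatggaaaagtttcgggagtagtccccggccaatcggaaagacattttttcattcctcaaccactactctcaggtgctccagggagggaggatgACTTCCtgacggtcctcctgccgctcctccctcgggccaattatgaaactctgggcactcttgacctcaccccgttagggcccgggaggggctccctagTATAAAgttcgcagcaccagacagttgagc
BTC, chr4:74794687-74794773, minus strand: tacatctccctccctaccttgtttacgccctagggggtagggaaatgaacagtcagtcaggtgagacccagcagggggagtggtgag
EGFR, chr7:55018767-55019016, plus strand: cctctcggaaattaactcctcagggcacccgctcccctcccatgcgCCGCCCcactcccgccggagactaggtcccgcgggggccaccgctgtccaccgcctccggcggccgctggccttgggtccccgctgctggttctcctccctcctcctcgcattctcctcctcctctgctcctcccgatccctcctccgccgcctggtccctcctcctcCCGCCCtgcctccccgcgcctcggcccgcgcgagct
TGFA, chr2:70554016-70554076, minus strand: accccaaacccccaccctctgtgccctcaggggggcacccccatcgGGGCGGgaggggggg

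RefSeq windows of 300 bases, from 250 before to 50 after the start, were found for 9 of the 10 members, with 2 windows each for TGFA and EGFR. AREG and EREG each held 1 match to TATAAA, which 11.5% of all 35116 windows hold. AREG held the cAMP response element, which 1.85% of all windows hold. The first EGFR window had no TATAAA and 3 matches to GGGCGG, letters that 45.0% of all windows hold, and its 75.3% of G and C compared with a median of 58.7% over all windows. The stretch printed above holds 2 of these 3 matches. HBEGF, with 75.0% of G and C and 5 matches to GGGCGG, had no TATAAA either. Nor had 1 TGFA window, with 75.3% and 4 matches, while the other TGFA window had 63.0% and neither motif. The second EGFR window, at chr7:55109589-55109888, held 2 matches to TATAAA, 2 to TGANTCA and none to GGGCGG, with 42.0% of G and C. The EGF window held 1 match to TGANTCA. The ERBB2 window held 3 matches to GGAAGT, letters that 22.8% of windows hold, and 1 to TGANTCA, which 7.71% hold. Its sequence is not shown because the window lies largely over annotated exon sequence of PGAP3, which runs the other way. The motifs were chosen after the members' values had been seen, and a match of letters is a description and not a bound site.

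Levels between genes were compared as normalized counts per kilobase of the longest coding transcript in GENCODE 29, a length that is too long where shorter transcripts prevail. AREG, which encodes amphiregulin, had the highest level of the members, with 9960 ± 27.5 (SD, n = 3) per kilobase in the knockdown and 10090 ± 427 (SD, n = 3) in the control. EREG, which encodes epiregulin, followed with 4449 ± 322 (SD, n = 3) and 5069 ± 625 (SD, n = 3). Together AREG and EREG took 91.0% to 92.8% of the summed ligand level per kilobase in the 6 libraries. TGFA was next at 702 to 894 per kilobase. EGFR and ERBB2 came after it in all libraries but in no fixed order, and BTC and HBEGF below these. EGF, the founding ligand of the family, was the lowest tested member at 6.30 to 9.81 per kilobase. The neighbours BTC and HBEGF overlapped in the knockdown, at 191 to 216 and 186 to 217 per kilobase, and did not overlap in the control, at 279 to 289 for BTC and 202 to 234 for HBEGF.

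**Figure D1:**
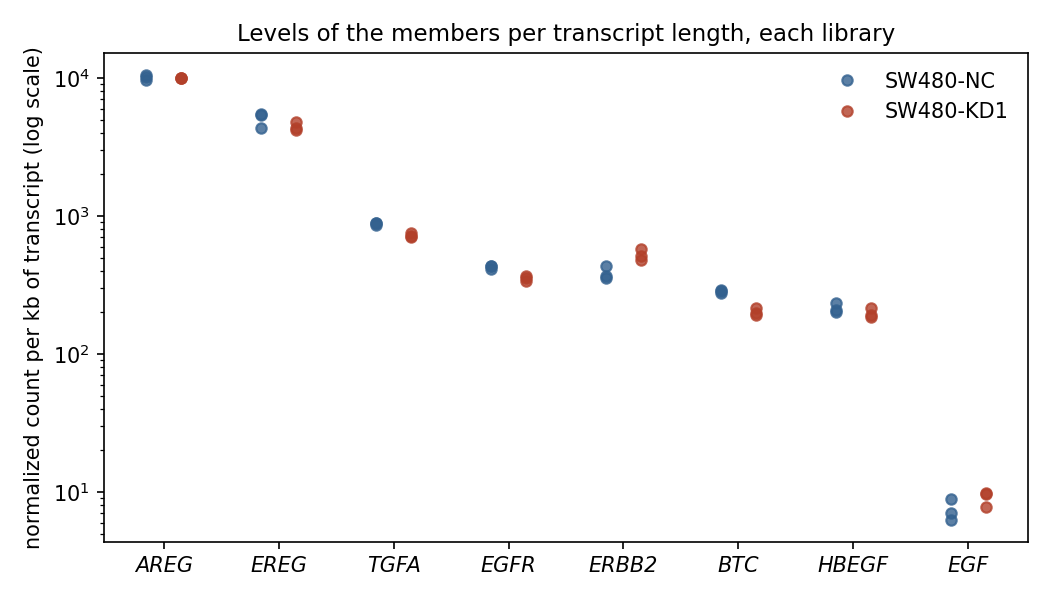
Normalized counts per kilobase of the longest coding transcript (log scale) for the 8 tested members, 1 point per library, with SW480-NC in blue and SW480-KD1 in red. AREG and EREG stand above the other members in all 6 libraries, and ERBB2 lies above EGFR in the 3 SW480-KD1 libraries and in SW480-NC replicate 3, and below it in the other 2 controls.

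The lines were compared with limma on log2(normalized count + 1) over 21703 features. Fold changes are on that scale and positive where the knockdown was higher. None of the 8 tested members passed the Benjamini-Hochberg adjusted threshold of 0.05 in limma, where 0.802% of all features passed, and 0 passed in edgeR, where 0.627% of all features did. In DESeq2 on the recovered reads 2 members passed, BTC (adjusted p = 0.00383) and ERBB2 (adjusted p = 0.0193). In that fit 4.55% of the 16618 features with an adjusted p passed. On simulated data all 3 tools made more false calls than the threshold allows, and DESeq2 made the most. At an unadjusted p under 0.05 from limma, 4 of 8 members differed, 1 higher and 3 lower, against 16.2% of all features, and 4 did so in edgeR. These 4 were also the members whose libraries did not overlap between the lines, which held for 23.4% of all features. None of the 8 reached 2-fold at an unadjusted p under 0.05, as 2.42% of all features did (1.46% higher and 0.968% lower). The median log2 fold change was −0.15 over the 8 members and −0.00 over all features, and the median size of the change without its sign was 0.28 against 0.20.

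**Figure D2:**
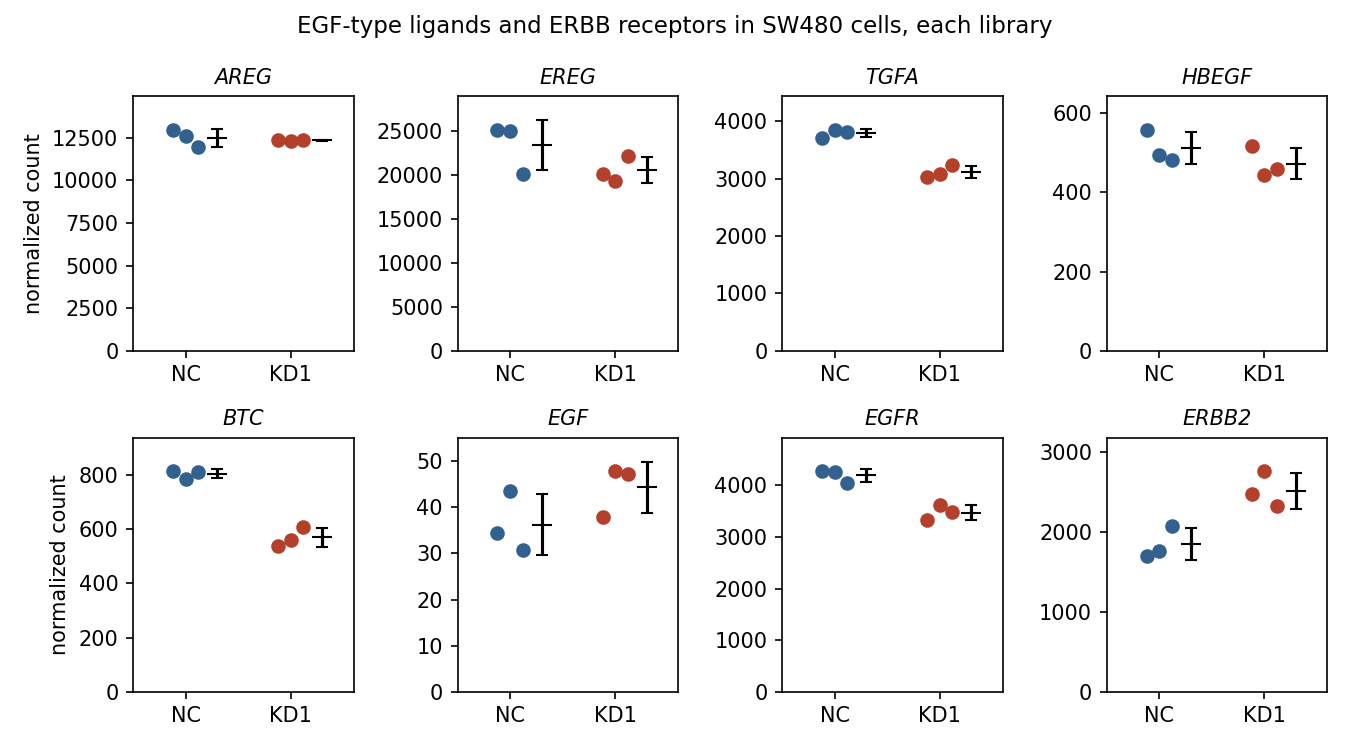
Normalized counts of the 8 tested members, each panel with its own axis from 0, with the 3 SW480-NC libraries in blue, the 3 SW480-KD1 libraries in red, and the mean with its SD in black. BTC, TGFA and EGFR lie lower and ERBB2 higher in SW480-KD1 without overlap, while AREG, EREG, HBEGF and EGF overlap.

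BTC, which encodes betacellulin, a ligand of EGFR and ERBB4, had the smallest p of the members. Its values were 538, 561 and 608 normalized counts in the knockdown and 814, 785 and 811 in the control. The control libraries lay close together and well above the knockdown libraries. The means of 569 ± 35.6 (SD, n = 3) and 803 ± 15.8 (SD, n = 3) left 70.8% of the control level, at a log2 fold change of −0.50 (95% interval −0.71 to −0.29, unadjusted p = 0.00070, adjusted p = 0.0679 from limma). The adjusted p ranged from 0.00383 to 0.234 over 17 alternative settings and was under 0.05 in 2 of them. For this gene and for TGFA, EGFR and ERBB2, whose lines did not overlap, a two-sided exact permutation test gave p = 0.1, the smallest that 3 libraries against 3 allow.

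TGFA encodes transforming growth factor alpha, the ligand many epithelial cells make for their own EGFR. It had 3027, 3080 and 3230 normalized counts in the knockdown and 3714, 3853 and 3810 in the control. All knockdown libraries were below all controls. The log2 fold change was −0.29 (95% interval −0.44 to −0.13, adjusted p = 0.107 from limma), and 82.1% of the control level was left. TGFA-IT1, a non-coding transcript that overlaps TGFA, had at most 5 reads in a library. BTC lay 0.178 to 0.188 times as high as TGFA in the knockdown and 0.204 to 0.219 times as high in the control, in normalized counts of the same library.

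AREG had 12364, 12312 and 12376 normalized counts in the knockdown and 12980, 12616 and 11937 in the control. The knockdown libraries were almost equal and lay within the range of the controls. The log2 fold change was −0.02 (95% interval −0.15 to 0.11, adjusted p = 0.904 from limma). EREG had 20137, 19310 and 22200 normalized counts in the knockdown and 25152, 25003 and 20080 in the control. The third control library lay among the knockdown libraries, and the other 2 controls were higher. The log2 fold change of EREG was −0.18 (95% interval −0.41 to 0.05, adjusted p = 0.411 from limma), and it was −0.29 without SW480-NC replicate 3 (adjusted p = 0.139).

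HBEGF (ENSG00000113070, chromosome 5 from 140332843 to 140346631, minus strand) encodes the heparin-binding ligand of EGFR and ERBB4. It had 517, 443 and 459 normalized counts in the knockdown and 559, 495 and 482 in the control. These ranges overlapped, and the log2 fold change was −0.11 (95% interval −0.37 to 0.14, adjusted p = 0.648 from limma). It was −0.05 without SW480-NC replicate 1, −0.07 without SW480-KD1 replicate 2 and −0.18 without SW480-KD1 replicate 1. EGF (ENSG00000138798, chromosome 4 from 109912884 to 110012266, plus strand) had 38.0, 47.9 and 47.1 normalized counts in the knockdown and 34.5, 43.5 and 30.7 in the control, again with overlap. Its log2 fold change was 0.29 (95% interval −0.26 to 0.84, adjusted p = 0.588 from limma), the widest interval of the tested members, at the lowest counts. Leaving out the third control library gave 0.18, and leaving out the second gave 0.42.

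EGFR had 3321, 3615 and 3475 normalized counts in the knockdown and 4276, 4253 and 4033 in the control. The lines did not overlap. The log2 fold change was −0.27 (95% interval −0.43 to −0.11, adjusted p = 0.127 from limma), and 82.9% of the control level was left. EGFR-AS1, an antisense transcript that overlaps EGFR, had at most 8 reads in a library.

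ERBB2, the receptor with no known ligand, was the only tested member of which all knockdown libraries were above all controls. It had 2465, 2759 and 2315 normalized counts in the knockdown and 1700, 1761 and 2073 in the control, with the third control nearest to the knockdown libraries. The log2 fold change was 0.45 (95% interval 0.20 to 0.69, adjusted p = 0.116 from limma), a level of 136% of the control. PGAP3, which overlaps the start of ERBB2 on the other strand, had 914, 1047 and 337 normalized counts in the knockdown and 698, 841 and 634 in the control, at a log2 fold change in limma of −0.07 (adjusted p = 0.951). Whether the counting used the strand is not given in the sources used here.

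The ratio of ERBB2 to EGFR, in normalized counts of the same library, was 0.742, 0.763 and 0.666 in the knockdown and 0.398, 0.414 and 0.514 in the control. The lowest knockdown library was above the highest control. This follows from ERBB2 being higher and EGFR lower without overlap, and adds no further evidence. Per kilobase of transcript the ratio was 1.52, 1.56 and 1.37 in the knockdown and 0.815, 0.848 and 1.05 in the control. The sum of the 2 receptors was 5984 ± 338 (SD, n = 3) normalized counts in the knockdown and 6032 ± 67.1 (SD, n = 3) in the control. That sum depends on transcript length, 9821 bases for EGFR and 4792 for ERBB2, and no sum per kilobase was formed. The genes were chosen by name, but the ratio and the sum were not among the planned comparisons. They are descriptions, and no test was made of them. ERBB4, the neuregulin receptor, was at 0 in all 3 knockdown libraries, which allows up to 3 reads in each, and had 7, 0 and 12 reads in the control. The lines overlapped at 0, and no fold is given.

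**Figure D3:**
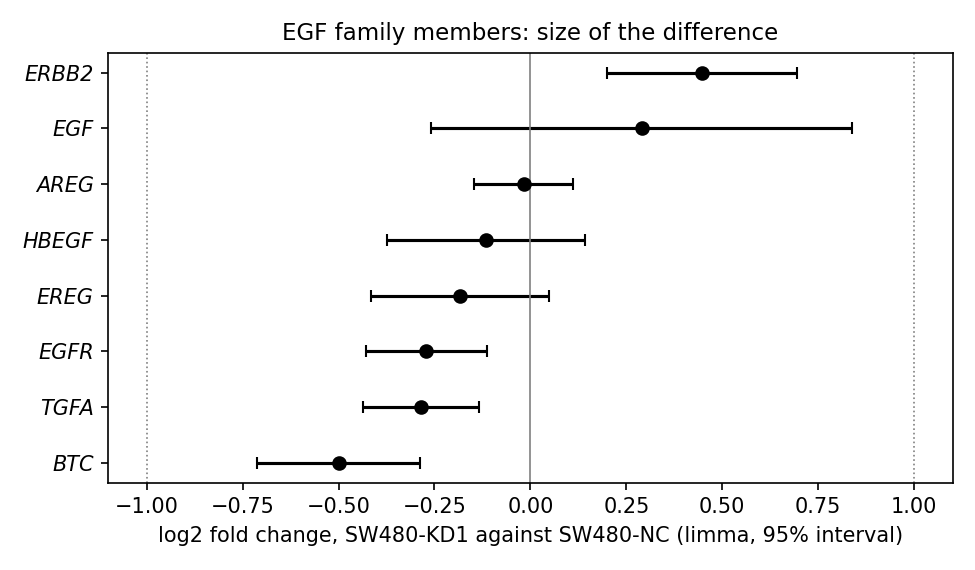
Log2 fold change of the 8 tested members between SW480-KD1 and SW480-NC, with points for the limma estimate, bars for its 95% interval, a line at 0 and dotted lines at 2-fold. The intervals of BTC, TGFA, EGFR and ERBB2 do not reach 0, those of the other 4 do, and all 8 stay inside 2-fold.

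Coding genes around the members within 250 kilobases were looked up after the members' values had been seen. Near ERBB2, 5 of 16 such genes were tested. PPP1R1B, a phosphatase inhibitor gene 51288 bases away, had 2757, 3044 and 2562 normalized counts in the knockdown against 1919, 1699 and 2067 in the control (adjusted p = 0.0692 from limma). GRB7, an adaptor that binds ERBB2, lies 7501 bases from it and had 1744, 1975 and 1632 against 1328, 1389 and 1411 (adjusted p = 0.130 from limma). Both had, like ERBB2, all knockdown libraries above all controls. PGAP3, MED1 and IKZF3 had log2 fold changes below 0 and adjusted p-values of 0.492 to 0.951 from limma. MED1 was lower without overlap, in the other direction from ERBB2, at 2603, 2789 and 2646 against 3069, 2819 and 2802 normalized counts. Near BTC the 1 coding gene, PARM1, had 2065, 2189 and 1922 normalized counts in the knockdown against 2642, 2606 and 2637 in the control (adjusted p = 0.0979 from limma). Near EGFR, LANCL2 had 903, 950 and 1059 against 1313, 1265 and 1281 (adjusted p = 0.101 from limma), and VOPP1 overlapped. Near AREG and EREG, MTHFD2L had 558, 559 and 491 normalized counts against 601, 552 and 525 (adjusted p = 0.809 from limma). Near TGFA, 4 of 7 coding genes were tested, and ADD2 with 169, 106 and 183 against 66.9, 88.9 and 59.4 normalized counts lay in the other direction from TGFA (adjusted p = 0.119 from limma). SNRPG was also higher in the knockdown without overlap, at 3235, 2959 and 2767 against 2277, 2486 and 2544 (adjusted p = 0.172 from limma). FAM136A was lower without overlap, as TGFA was, at 4262, 3846 and 4150 against 4405, 4482 and 4572 (adjusted p = 0.368 from limma), and PCYOX1 overlapped.

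Of 105 other genes of the pathway, 85 had a row and 79 were tested. In limma 1 was higher and 2 were lower at an adjusted p under 0.05, where 0.332% and 0.470% of all features were, and all 3 are transcripts known to respond to ERK. At an unadjusted p under 0.05 the counts were 7 higher and 13 lower, where 8.10% and 8.15% of all features were. The 13 include HPSE, the target of the guide. Without it 78 genes were tested, with 7 higher and 12 lower. The median log2 fold change of the 79 genes was −0.04.

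Among 15 tested ERK-responsive transcripts, EGR1 rose, and FOSL1 and EMP1 fell. EGR1, an immediate early transcription factor, had 3005, 2922 and 3256 normalized counts in the knockdown and 1923, 1651 and 1849 in the control. Its lines were far apart, at a log2 fold change of 0.76 (SE 0.09, adjusted p = 0.0159 from limma). FOSL1, the AP-1 subunit FRA1, had 1004, 646 and 728 normalized counts in the knockdown and 1881, 1674 and 1693 in the control, at a log2 fold change of −1.16 (SE 0.16, adjusted p = 0.0343 from limma). EMP1, an epithelial membrane protein, had 814, 515 and 586 against 1369, 1334 and 1216, at a log2 fold change of −1.06 (SE 0.17, adjusted p = 0.0426 from limma). In both genes SW480-KD1 replicate 1 was the highest knockdown library and still below all controls. Each of the 3 genes passed in only 1 of 6 fits that left out 1 library, EGR1 without SW480-NC replicate 3 and FOSL1 and EMP1 without SW480-KD1 replicate 1, with adjusted p-values up to 0.167 in the others. In edgeR EGR1 and FOSL1 passed and EMP1 did not (adjusted p = 0.0537).

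Of the 15 transcripts, 7 had an unadjusted p under 0.05 in limma, 3 higher and 4 lower. Of all features 16.2% did, 8.10% higher and 8.15% lower. The lines did not overlap for 8 of the 15, as for 23.4% of all features. PLAUR, the urokinase receptor, had 921, 979 and 906 normalized counts in the knockdown and 1168, 1236 and 1389 in the control (log2 fold change −0.43, adjusted p = 0.101 from limma). ETV4, an ETS factor, had 3955, 3639 and 3194 against 2454, 2813 and 2876 (log2 fold change 0.40, adjusted p = 0.133 from limma). Both passed in DESeq2. DUSP5 at −0.40 and DUSP4 at 0.39 on the log2 scale, both phosphatases of MAP kinases, also did not overlap between the lines (adjusted p = 0.247 and 0.297 from limma). DUSP6, a phosphatase that ERK signaling induces and that acts on ERK, had 1349, 1742 and 1180 normalized counts in the knockdown and 1333, 1236 and 1264 in the control (adjusted p = 0.667 from limma). CCND1, the cyclin of early G1, had 6274, 6095 and 6153 against 6533, 6243 and 6155 (adjusted p = 0.831 from limma), and the lines were nearly equal. The median log2 fold change of the 15 transcripts was −0.17, with 6 positive and 9 negative. Of the lists below, none had a gene past the adjusted threshold in limma.

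Among 8 tested genes of ligand shedding and transport, ADAM10, a protease that releases BTC and EGF, had the lowest log2 fold change, −0.19 (adjusted p = 0.243 from limma). FRMD8, a partner of the carriers that take ADAM17 to the surface, had the highest, 0.74 (adjusted p = 0.355 from limma), and its controls differed widely, at 743, 1741 and 574 normalized counts. ADAM17 itself had no row. Among the 8 tested adaptors, GAB1 was lowest at −0.19 and GRB7 highest at 0.37. In the RAS, RAF, MEK and ERK cascade, with 11 tested genes, NRAS was lowest at −0.31 (adjusted p = 0.150 from limma) and MAPK3, which encodes ERK1, highest at 0.39 (adjusted p = 0.219 from limma).

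In the PI3K, AKT and STAT branch, with 9 tested genes, the range was from −0.24 for PIK3CB to 0.32 for AKT1 on the log2 scale. The 20 tested genes that restrain or internalize the receptors had a median log2 fold change of −0.06. SH3KBP1, an adaptor in receptor endocytosis, was lowest at −0.33 (adjusted p = 0.137 from limma), and CBL, a ubiquitin ligase of EGFR, highest at 0.65 (adjusted p = 0.559 from limma). CBL had 4265, 4877 and 5019 normalized counts in the knockdown and 4850, 1188 and 4717 in the control, where 1 library lay far below the other 5. ERRFI1, a feedback inhibitor of the receptors, had a log2 fold change in limma of −0.03 (adjusted p = 0.909). Of 99 tested list genes above 0 in every library, 9 differed by over 2-fold between libraries of the same line, among them MYC, GRB2 and PHLDA1.

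Of the genes listed as heparan sulfate partners of the ligands, 7 were tested with HPSE included. HPSE, which encodes the enzyme that cleaves these chains and is the target of the guide, was lowest. CD44, whose variants with heparan sulfate present HBEGF, had 22848, 22125 and 23781 normalized counts in the knockdown and 26126, 27756 and 28070 in the control (log2 fold change −0.25, adjusted p = 0.0997 from limma). The lines did not overlap. SDC3 was highest at 0.28, with an adjusted p of 0.404 from limma. Among the other EGF-type ligands, NRG4, a neuregulin, had 39.0, 43.3 and 46.2 normalized counts in the knockdown and 22.0, 27.0 and 41.4 in the control (adjusted p = 0.398 from limma), EPGN and NRG1 stayed below the minimum, and NRG2 and NRG3 had no row.

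**Figure D4:**
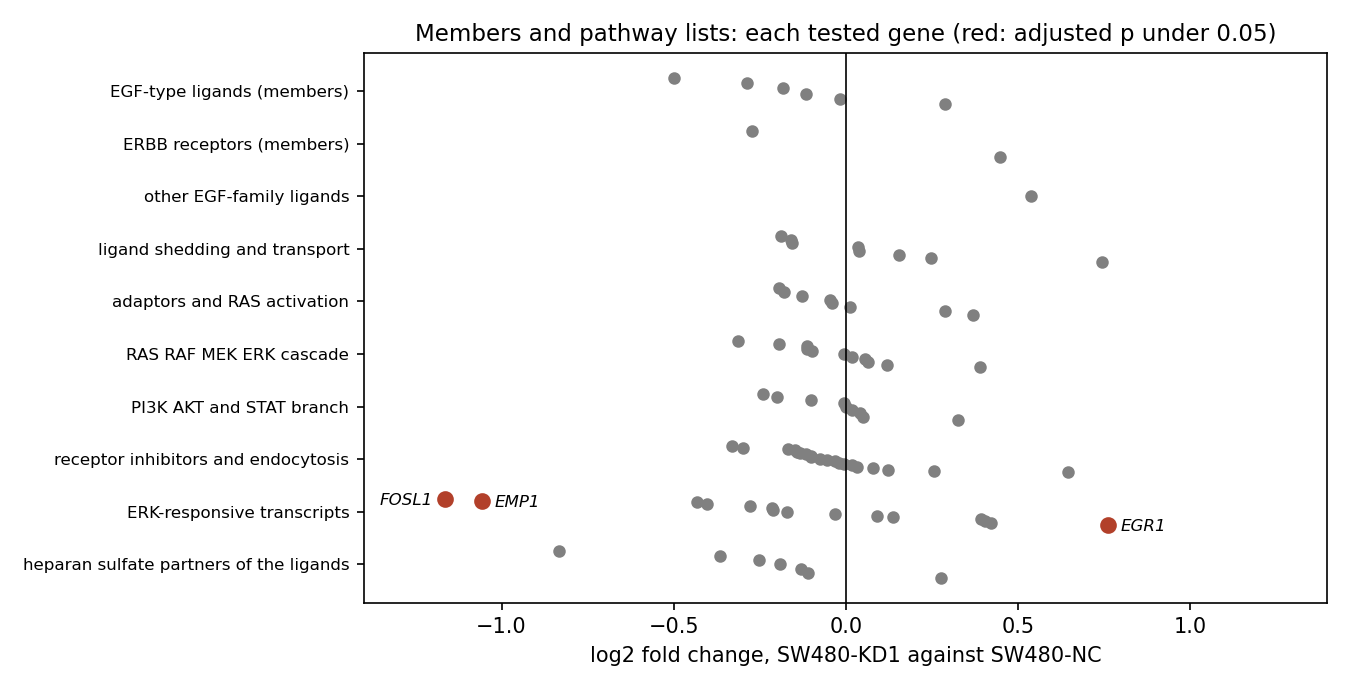
Log2 fold change between SW480-KD1 and SW480-NC for each tested member and pathway gene, 1 row of points per list, with red points at an adjusted p under 0.05 from limma. Only EGR1, FOSL1 and EMP1, all ERK-responsive transcripts, are red, and the members lie between −0.50 and 0.45.

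The pattern of BTC over the 6 libraries was compared with that of 12564 tested features with a symbol, as Pearson's r of log2(normalized count + 1). The closest were TMEM45B with r = 0.996, DTL with 0.995, and F5, EXOC5 and OSBPL3 with 0.994 each. Of the features compared, 197 were above 0.95. F5, coagulation factor V, had 6686, 7192 and 7326 normalized counts in the knockdown and 10545, 10144 and 10575 in the control. It was picked for its likeness in these same libraries, so no test is given for it.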

How the data were processed

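The authors built the libraries with a NEBNext Ultra kit for Illumina sequencing. The submitters' processing notes name bcl2fastq, HISAT2, DESeq2 and the build GRCh38, and the paper's methods name Cuffdiff for differential expression. The assembler, the counting tool and the annotation are not given in the sources used here. Each deposited value is a signal, namely the reads of 1 feature after the authors scaled every library by a single size factor. All values of a library were whole multiples of 1 step (tolerance 0.01 of a read), so 100% came out as whole reads. Replicates differed by more than sampling noise, with a chi-square per feature of 21.7 to 26.6.

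In R 4.3.3, limma 3.58.1 was fitted to log2(value + 1) for the 21703 features whose mean normalized count was 10 or more, with its trend option, and p-values were adjusted over them by Benjamini-Hochberg. Alternatives included 2 count models on the recovered reads, edgeR 4.0.16 (quasi-likelihood) and DESeq2 1.42.0. On simulated data limma, edgeR and DESeq2 each made more false calls than the adjusted threshold allows, and DESeq2 made by far the most. Calls made in DESeq2 alone are therefore less certain. Symbols were found for 25595 of 25927 Ensembl identifiers. Named genes are the members, HPSE, and of each list the genes past the adjusted threshold and the 2 extremes, with the 5 features most like the member of smallest p (BTC). PLAUR, ETV4, DUSP4, DUSP5, DUSP6, CCND1, ERRFI1, CD44, the epithelial and other markers, the genes that vary within a line and the neighbours were chosen after their values were seen. The members and lists were chosen with earlier results of these data known. Limits on reads at 0 cover counting error only. Figures were drawn with matplotlib 3.10.9.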

Additional observations from a re-analysis of the deposited data

How the results depend on the processing

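Over the alternatives every tested member kept its direction except AREG, whose log2 fold change turned to 0.0275 with quantile normalization and ranged from −0.0512 to 0.00926 in the fits that left out 1 library. No member passed the adjusted threshold in limma, 1 did when a mean of 50 normalized counts was required (BTC) and 2 did in DESeq2. With all features of any value, 1 member, ERBB4, had an unadjusted p under 0.05 (0.0416) and over 2-fold, at 0 to 12 reads. Calls over all features numbered 174, against 756 in DESeq2, 11 without an intensity trend and 29 to 93 with 1 library left out. Pathway calls numbered 3, against 7 in DESeq2 (HPSE among them), 0 without an intensity trend and 0 to 2 with 1 library left out. The cause of these shifts was not tested.

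No pairing by replicate number was seen. Same-numbered deviations correlated at −0.0202 to 0.00741 and differently numbered ones at −0.0263 to 0.0244. Whether same-numbered libraries were handled together is not given in the sources used here. With the replicate block 12 features, 0 pathway genes and 0 members passed. The low counts of EGF and ERBB4 limit what could be seen for them.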
